A study of Mus musculus with 8 samples.

Results

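Genes of the cardiac sarcomere and of excitation-contraction coupling were examined for chromatin accessibility that differed between WT and Chd4-CMko mouse hearts at E10.5, measured by ATAC-seq, in which Tn5 transposase cuts open chromatin. The set held 45 of the 21938 protein-coding genes of GENCODE M21. A listed peak was assigned to one of them when the nearest protein-coding transcription start site (TSS) was that of the gene, or when the peak lay within 10 kb of the gene body. The authors deposited a peak list for either genotype, on mm10, with 12991 peaks from Chd4-CMko hearts (called gained below) and 2745 from WT hearts (called lost). The rule assigned 47 of the 15736 listed peaks, 41 gained and 6 lost, to 25 of the 45 genes.

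Both genotypes had 4 samples, and whole hearts were pooled in each. The design text and the study's methods give 3 hearts per sample at this stage, and the extraction protocol in the labels gives 4. In Chd4-CMko hearts Chd4, the ATPase of the NuRD chromatin remodeling complex, was deleted in cardiomyocytes. For embryos of this stage used in immunohistochemistry, the study's methods crossed Chd4 fl/fl females with Tnnt2 Cre/+; Chd4 fl/+ males, and the cross behind the ATAC-seq hearts is not given separately. In that cross Cre is under the control of Tnnt2, which is a gene of the set. The controls were littermates, and all embryos of that cross carry a floxed allele. Whether the controls carried Cre is not given in the sources used here. Nuclei came from all cells of the heart, and cells without Cre keep Chd4 in such a mutant. There was 1 list per genotype, with no sample named in it, so no value per sample, replicate error or test between genotypes could be had, and all comparisons are descriptions of these lists. Chd4 itself had 2 gained and 0 lost peaks. This does not check the deletion, since the lists give no reads over the deleted exons.

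A cardiomyocyte contracts when calcium that enters through L-type channels opens ryanodine receptors of the sarcoplasmic reticulum. The released calcium binds troponin C on the thin filament, tropomyosin moves aside, and myosin heads of the thick filament pull on actin. Z-discs anchor the thin filaments, titin and M-band proteins hold the thick filaments in register, and gap junctions pass the impulse to the next cell. In the embryonic heart these genes are switched on as cardiomyocytes differentiate, with MEF2, serum response factor at CArG boxes, GATA, NKX2-5 and T-box factors among their known regulators.

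The sequences below are picked examples of gained and lost regions of these genes and do not represent all of them. They are the member peak with the highest gained score, the gained peaks with the most of 10 searched motifs, the highest scoring lost peak, and the peaks just upstream of the Nppa and Hrc starts, which were added after their values were seen. Of the 41 gained member peaks, 6 held 3 of the motifs and none held more, beside 12.4% of all gained peaks with 3 or more. Peaks that overlapped an annotated UTR are not printed. Each is a 151 bp peak read from GRCm38 (mm10) on the strand of the gene. Capitals mark matches on either strand to short strings of the factor families named here, GATA factors (AGATAA), TEAD (CATTCC), NKX2-5 (AAGTG), TBX5 (AGGTGT), E-box proteins (CAGCTG), KLF (CCACCC) and NFY (CCAAT), and to the longer MEF2, CArG and CTCF consensus strings, of which none matched here.
Tnnc1, chr14:31209219-31209369, plus strand, gained: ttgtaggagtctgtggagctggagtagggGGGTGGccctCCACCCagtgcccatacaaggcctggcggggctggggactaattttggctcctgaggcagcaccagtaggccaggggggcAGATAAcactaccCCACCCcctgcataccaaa
Nppa, chr4:148000336-148000486, plus strand, gained: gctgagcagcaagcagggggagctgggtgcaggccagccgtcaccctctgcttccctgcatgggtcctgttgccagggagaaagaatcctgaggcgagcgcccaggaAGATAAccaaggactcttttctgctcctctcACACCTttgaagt
Hrc, chr7:45335084-45335234, plus strand, gained: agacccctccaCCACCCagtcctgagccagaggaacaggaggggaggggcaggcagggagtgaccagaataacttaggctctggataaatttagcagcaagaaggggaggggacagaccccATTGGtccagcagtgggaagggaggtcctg
Myl4, chr11:104578240-104578390, plus strand, gained: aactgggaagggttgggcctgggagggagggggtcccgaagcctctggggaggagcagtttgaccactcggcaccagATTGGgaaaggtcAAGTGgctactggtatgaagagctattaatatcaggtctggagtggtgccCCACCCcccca
Ttn, chr2:76970373-76970523, minus strand, gained: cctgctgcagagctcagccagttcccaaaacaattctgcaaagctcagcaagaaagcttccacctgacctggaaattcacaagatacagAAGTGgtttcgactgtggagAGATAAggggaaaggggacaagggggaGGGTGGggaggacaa
Fhl2, chr1:43183935-43184085, minus strand, gained: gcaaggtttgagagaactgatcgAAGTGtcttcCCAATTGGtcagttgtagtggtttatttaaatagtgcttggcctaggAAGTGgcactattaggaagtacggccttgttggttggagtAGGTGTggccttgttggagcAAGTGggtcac
Smyd1, chr6:71242110-71242260, minus strand, gained: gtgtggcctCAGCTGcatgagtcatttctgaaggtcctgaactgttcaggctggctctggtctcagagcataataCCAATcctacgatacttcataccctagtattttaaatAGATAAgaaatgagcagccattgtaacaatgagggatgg
Myom2, chr8:15388951-15389101, plus strand, gained: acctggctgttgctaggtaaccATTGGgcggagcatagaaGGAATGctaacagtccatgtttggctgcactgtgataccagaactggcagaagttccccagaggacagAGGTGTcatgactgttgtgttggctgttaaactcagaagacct
Ryr2, chr13:11960019-11960169, minus strand, lost: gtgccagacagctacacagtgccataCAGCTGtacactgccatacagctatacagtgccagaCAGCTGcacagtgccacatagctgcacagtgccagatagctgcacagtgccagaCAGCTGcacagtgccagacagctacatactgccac
The Tnnc1 peak carried 1 GATA and 3 KLF strings, and the Nppa peak carried a GATA string followed by a T-box string. In the Fhl2 peak, a CCAAT and its reverse complement overlapped, and the NKX2-5 string occurred 3 times. Repeats covered 44.4% of the Fhl2 peak. Its score (36.0) and those of the Smyd1 (29.5) and Myom2 (26.5) peaks were below the median of all gained peaks (62.5). The lost Ryr2 peak is made of short similar stretches, and the E-box string occurred 3 times in it.

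Of the 45 genes, 24 had a gained peak, a share of 53.3% (Wilson 95% interval 39.1 to 67.1, counting error only), and by the same rule 37.4% of all protein-coding genes did. A lost peak was assigned to 4 of 45 genes, or 8.89% (3.51 to 20.7), beside 10.8% of all protein-coding genes. Of the genes with gained peaks, 13 had 1, 5 had 2 and 6 had 3, and none had more. Ryr2, Ldb3 and Cmya5 had peaks in both lists, and Popdc2 had a lost peak only. Gained peaks made up 87.2% (74.8 to 94.0) of the peaks of the set and 82.6% of all listed peaks. The interval of the former includes the latter.

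A longer stretch of genome gives a gene more room for a peak. The stretch that the rule gave each gene had a median of 57.3 kb in the set and of 56.4 kb over all protein-coding genes, and ranged in the set from 21.1 kb at Tcap to 1181 kb at Ryr2. Per Mb of assigned stretch, the set had 6.19 gained and 0.905 lost peaks, beside 5.20 and 1.01 over all protein-coding genes. In the tercile of genes with the smallest stretches, up to 39.2 kb, 6 of 10 members had a gained peak, beside 23.2% of all such genes. These 6 were Tnnc1, Tnni3, Tnnt2, Nppa, Nppb and Hrc. In the middle tercile, 8 of 19 members had one, beside 33.9%, and in the tercile with the largest stretches, above 90.7 kb, 10 of 16, beside 55.2%. Lost peaks were assigned to 0 of 10, 2 of 19 and 2 of 16 members, beside 2.01%, 5.83% and 24.5% of all genes of these terciles. For gained peaks, the difference between members and all genes was therefore widest among compact genes, on a base of 10 genes. For lost peaks it was widest in the tercile with the largest stretches, where the members were below all genes.

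**Figure D1:**
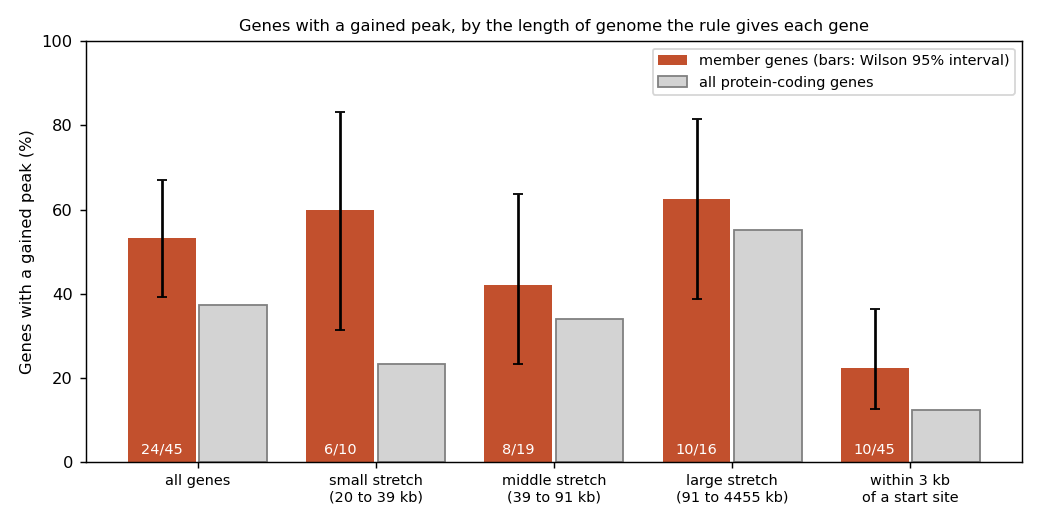
Share of genes with a gained peak (%) for the 45 member genes (filled bars, with the number of genes written in the bar and Wilson 95% intervals) and for all protein-coding genes (grey bars), over all genes, by terciles of the length of genome that the rule gives a gene, and for peaks within 3 kb of a start site. The member bar stands above the grey bar in each of the 5 pairs, and the intervals include the grey bar in the middle and the large tercile. The intervals give counting error only and are not a test.

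Counting only peaks within 3 kb of a TSS of the gene left 10 of 45 genes with a gained peak, 22.2% (12.5 to 36.3), beside 12.4% of all protein-coding genes. They were Actn2, Myl3, Myl4, Tnnc1, Tnni1, Tnni3, Nppa, Ldb3, Hrc and Gjc1. A lost peak within 3 kb was found for 1 gene, Popdc2, or 2.22%, beside 1.24%. The 41 gained peaks lay at a median of 7573 bp from the nearest TSS of their own gene. Of them, 10 were within 1 kb, 18 between 3 and 20 kb, and 11 beyond 20 kb, 3 of these beyond 100 kb. The first count depends on the annotation of starts, since of the 36 peaks whose gene had a matched RefSeq start, 5 lay within 1 kb and 8 within 3 kb of it. The 5 belonged to Hrc, Myl3, Nppa, Tnnc1 and Tnni3. Introns of the member held 10 of the 41, exons held 9, and the remaining 22 were outside the gene body, 14 upstream and 8 downstream. Over any annotated gene, 26.8% (15.7 to 41.9) of the 41 overlapped an exon, beside 18.01% of all gained peaks. A start site within 3 kb, of any annotated gene, was found for 39.0% (25.7 to 54.3) of the 41 and for 30.9% of all gained peaks.

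**Figure D2:**
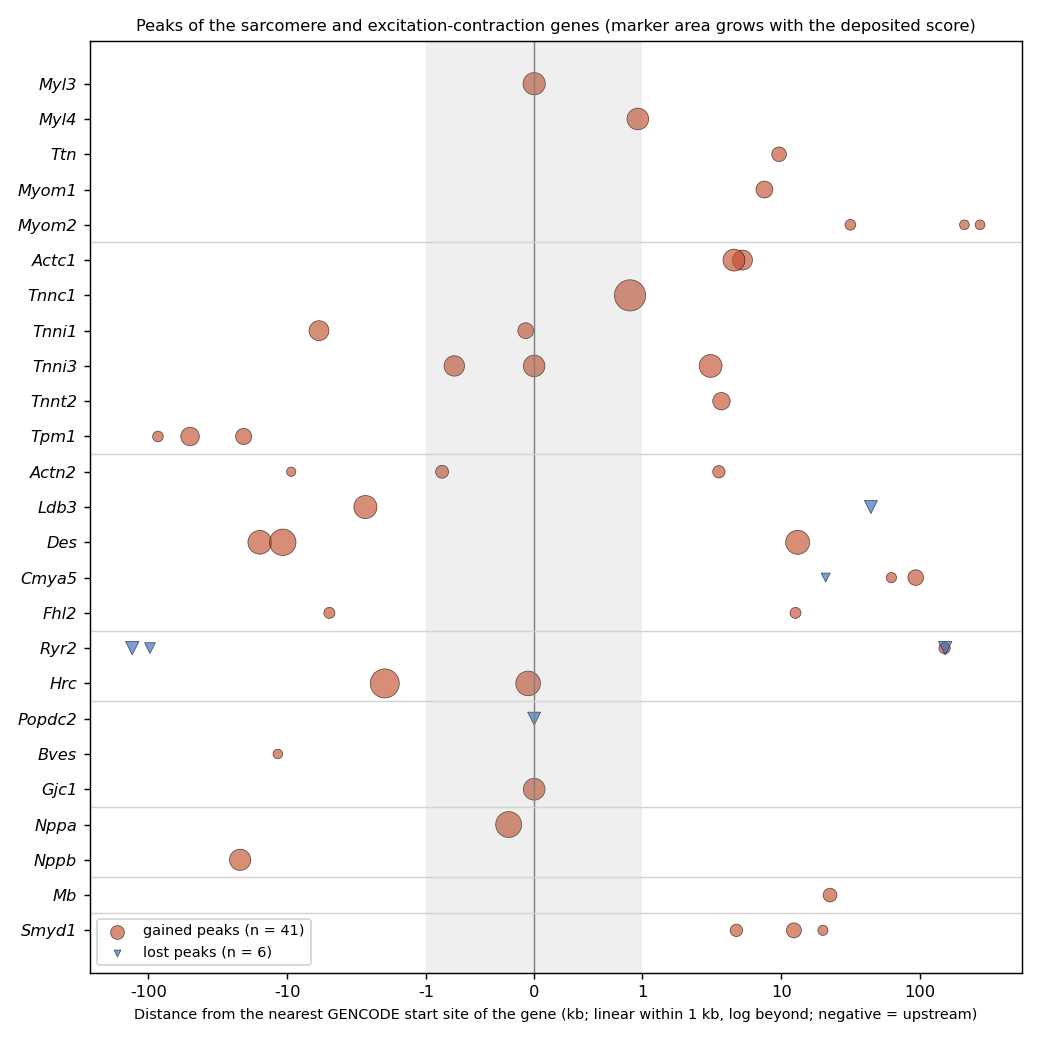
Position of the 41 gained (circles) and 6 lost (triangles) peaks along the signed distance from the nearest GENCODE start site of their gene (kb, linear within 1 kb and logarithmic beyond, negative upstream), 1 row per gene and rows grouped by role. Marker area grows with the deposited score, and the 10 gained peaks in the shaded band lie within 1 kb of a start site, while a peak of Myom2 lies 269944 bp away.

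The score that the authors deposited with each peak has no stated scale and is compared here only within a list. The median score of the 41 gained peaks was 100.0 (23.0 to 363.5), and the median of all gained peaks was 62.5 (highest 696.5). Of the 41, 26 were above the median of the list and 9 were in its top 10%. These 9 peaks belonged to Tnnc1, Tnni3, Nppa, Ldb3, Des (3 peaks) and Hrc (2 peaks). Scores moved with distance from a start site in the set and in the list. Gained peaks within 1 kb of their own start had a median score of 170.75 in the set, and all gained peaks within 1 kb of a coding start had 144.5. Beyond 20 kb, the medians were 39.0 and 50.5. The 6 lost peaks had a median score of 55.85, beside 36.8 for all lost peaks, and none was in the top 10% of that list.

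**Figure D3:**
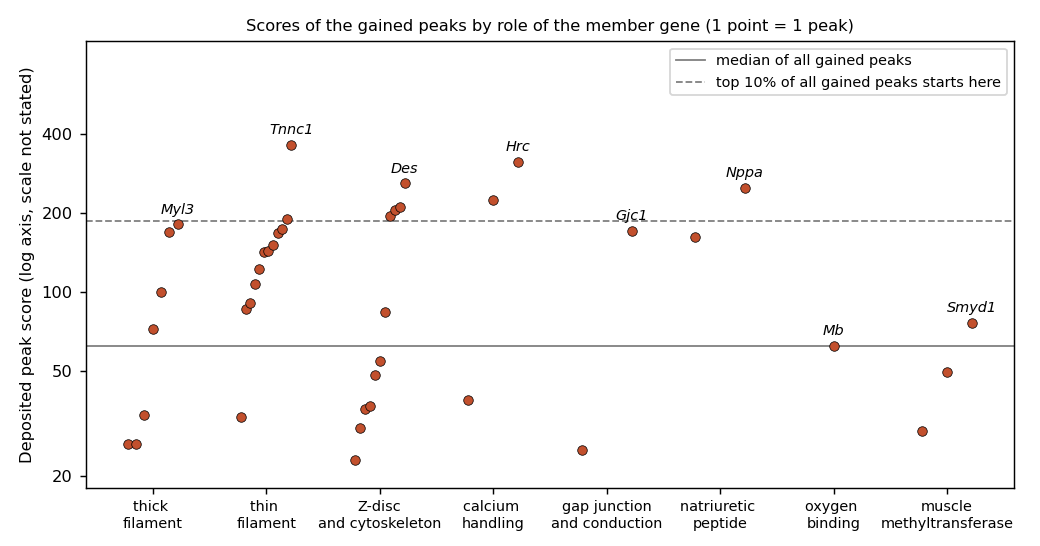
Deposited score (log axis, scale not stated) of each of the 41 gained peaks by the role of its gene, 1 point per peak, with the highest gene of each role named. The solid line is the median of all gained peaks (62.5) and the dashed line the start of their top 10%. Peaks of Tnnc1, Hrc, Des and Nppa lie above the dashed line, and peaks of Myom2 (26.5) and Bves (25.0) lie near the bottom.

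By role, the counts rest on 1 to 11 genes each and stand beside 37.4% gained and 10.8% lost of all protein-coding genes, with no test between them. Among the 8 thin filament genes, 6 had gained peaks (12 peaks, median score 142.25) and none had a lost peak. All 4 troponin genes of the set were among the 6. Tnnc1, which encodes the calcium-binding subunit of cardiac and slow muscle troponin, had 1 peak in an intron 887 bp downstream of its TSS. With a score of 363.5 it ranked 143 among all gained peaks and was the highest of the set. Tnni3, the adult cardiac inhibitory subunit, had 3 peaks. The peak at chr7:4522403-4522553 (score 168.0) covered the RefSeq start, the peak at chr7:4521306-4521456 (150.5) lay in an exon, and the peak at chr7:4516510-4516660 (190.5) lay 1645 bp past the 3′ end. The last of these was 128 bp from the start of Tnnt1, the neighboring slow skeletal troponin T gene, and cannot be assigned to one gene alone. Tnni1, the inhibitory subunit of slow muscle and the embryonic heart, had a peak 78 bp upstream of the first GENCODE start (86.0) and another in an intron (141.5). The first lay 20065 bp upstream of the RefSeq start of Tnni1. Thus the troponin C, I and T genes all carried gained peaks, with scores between 86.0 and 363.5.

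Tnnt2, the cardiac troponin T gene, had 1 gained peak in an exon at chr1:135844591-135844741, with a score of 107.0. Actc1, the cardiac actin gene, had 2 peaks, both in exons near its 3′ end, at chr2:114048165-114048315 (174.5) and chr2:114047474-114047624 (143.0). Actin genes share much of their coding sequence, and how the authors treated reads that align to several places is not given in the sources used here. Tpm1, alpha tropomyosin, had 3 peaks upstream of its start, at 20558 bp (90.5), 49993 bp (122.0) and 85130 bp (33.5), and none inside or within 10 kb of the gene. The peaks at 49993 and 85130 bp also lay within 3 kb of a start of another annotated gene that is not protein-coding. All 3 held both the NKX2-5 and the NFY string, a pair singled out after it was seen, which 6 of the 41 gained member peaks and 7.91% of all gained peaks held. The remaining thin filament genes, Nexn and Lmod2, which encode an actin-binding protein and a filament nucleator, had no listed peak, and their nearest gained peaks were 61.3 and 443 kb from the gene.

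Of the 10 thick filament genes, 5 had gained peaks (7 peaks, median score 72.5) and none had a lost peak. Myl3, the ventricular essential light chain, had a peak over its RefSeq start at chr9:110763530-110763680 with a score of 181.0. It held CArG, KLF and NFY strings, and it was the only one of the 41 with a CArG box. Myl4, the atrial essential light chain, had a peak in an intron 959 bp from an internal GENCODE start, with a score of 170.0, and 27577 bp downstream of its RefSeq start. Titin (Ttn) had 1 intronic peak (72.5) at 9659 bp from the nearest start, and the M-band gene Myom1 had 1 (100.0) of which 97.4% was repeat sequence. Myom2, another M-band gene, had 3 peaks, with scores of 34.0, 26.5 and 26.5, at 31463, 208252 and 269944 bp downstream of its nearest start. They were assigned only because no other coding start was closer.

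The myosin heavy chain genes Myh6 and Myh7, the regulatory light chain genes Myl2 and Myl7, and Mybpc3, which encodes cardiac myosin-binding protein C, had no listed peak. The gained peak nearest to Myh6 lay 17.1 kb from the gene, had a score of 285.5, and was closest to the start of Efs. At Myl7 and Mybpc3 the nearest gained peaks were 19.1 and 20.9 kb away. The lists hold only peaks that the authors called different, so a gene with no listed peak may have been open or closed in both genotypes.

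Among the 11 Z-disc and cytoskeleton genes, 5 had gained peaks (11 peaks, median score 54.5) and Ldb3 and Cmya5 had lost peaks. Des, which encodes the intermediate filament desmin, had 3 gained peaks, all in the top 10% of the list. The peaks at chr1:75349422-75349572 (259.0) and chr1:75344430-75344580 (205.5) lay 10757 and 15749 bp upstream of the start, and both held a TEAD string. The remaining one, at chr1:75375164-75375314 (210.0), lay 6585 bp past the 3′ end of Des, covered a start of the neighboring Speg gene, and was the only one of the 41 to hold the MEF2 consensus. Actn2, sarcomeric alpha-actinin, had 3 gained peaks of 54.5, 48.5 and 23.0. The first was 852 bp from an internal GENCODE start but 65634 bp from the RefSeq start, another was in an exon, and the last was 9352 bp upstream of the gene.

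Ldb3 encodes a PDZ-LIM protein of the Z-disc also called Cypher or ZASP. Its gained peak, at chr14:34591416-34591566 (195.0), was 2734 bp upstream of its start and 273 bp from a start of Opn4. Its lost peak, at chr14:34532605-34532755 (56.0), was in an intron, with 9230112D13Rik as the nearest coding start. Cmya5, a cardiomyopathy-associated Z-disc protein, had intronic gained peaks of 84.0 and 30.5 and an intronic lost peak of 21.6 at chr13:93123668-93123818, of which 79.5% was repeat. Both lists therefore contained peaks inside or beside these genes. Fhl2, a LIM-only protein, had gained peaks of 36.0 and 37.0. Csrp3, Tcap, Myoz2, Ankrd1, Xirp1 and Xirp2, whose products bind or link Z-disc and intercalated disc proteins, had none, with the nearest gained peak between 12.1 kb (Tcap) and 188 kb (Xirp1) from the gene.

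Calcium handling genes had gained peaks in 2 of 7 cases and lost peaks in 1. Hrc, the histidine-rich calcium-binding protein of the sarcoplasmic reticulum, had 2 gained peaks in the top 10%. The peak at chr7:45335084-45335234 (224.0) lay 56 bp upstream of its start. The peak at chr7:45333156-45333306 (313.5, rank 288) lay 1984 bp upstream and 350 bp from a start of Trpm4, which encodes a calcium-activated cation channel. Ryr2, the cardiac ryanodine receptor, had 3 lost peaks and 1 gained peak. The lost peaks at chr13:11960019-11960169 (60.2) and chr13:11926785-11926935 (35.3) were in introns, 130365 and 97131 bp from the nearest start. The other lost peak, at chr13:11432894-11433044 (59.7), and the gained peak, at chr13:11434505-11434655 (39.0), lay 120058 and 118447 bp beyond the 3′ end of the gene. Repeats covered 100% of that gained peak. All 4 Ryr2 peaks were thus far from any protein-coding start site.

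Pln and Sln, which encode the inhibitors of the calcium pump of the sarcoplasmic reticulum, the pump gene Atp2a2, the sodium-calcium exchanger gene Slc8a1 and the calsequestrin gene Casq2 had no listed peak. A lost peak lay 12.96 kb from Casq2, nearest to the start of Vangl1. The gained peak nearest to Slc8a1 was 368 kb from the gene.

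Of the 5 gap junction and conduction genes, Gjc1 and Bves had a gained peak and Popdc2 a lost peak. Gjc1 encodes connexin 45, a connexin of the early heart and conduction system. Its peak covered the TSS at chr11:102819119-102819269, with a score of 171.5 and the highest GC content of the 41, 82.8%. Bves and Popdc2 encode cAMP-binding Popeye proteins. The Bves peak (25.0) lay 11677 bp upstream and was 75.5% repeat. The Popdc2 lost peak (55.7), at chr16:38371880-38372030, covered an internal GENCODE start in an exon, 9690 bp downstream of the RefSeq start. Gja1 (connexin 43) and Gja5 (connexin 40) had none, and the nearest gained peaks were 712 and 158 kb from them.

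Both natriuretic peptide genes had a gained peak. Nppa and Nppb, hormone genes of embryonic working myocardium, lie next to each other on chromosome 4. The Nppa peak (248.5, rank 627) lay 236 bp upstream of the start and held the GATA and T-box strings printed above. The Nppb peak, at chr4:147963825-147963975 (162.0), lay 21813 bp upstream of Nppb. The Nppa peak was 13.1 kb from the Nppb gene, outside the limit of 10 kb. The myoglobin gene Mb had 1 gained peak (62.5) at 22463 bp from its nearest start. Smyd1, the muscle methyltransferase gene, had 3 gained peaks, of 76.5 and 29.5 in introns and of 49.5 at 1824 bp past its 3′ end, and no lost peak. Repeats covered 55.0% of the peak past the 3′ end. By RNA-seq, the study reported a significant decrease of Smyd1 in Chd4-CMko hearts, so its gained peaks cannot be read as higher expression.

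Peaks just inside and just outside the 10 kb limit were as follows. The farthest peak taken by this limit was that of Actn2 at 9352 bp from the gene body. The nearest one not taken was a gained peak (82.5) at 10181 bp from Tnnc1, closest to Sema3g. Between 10 and 20 kb from a member gene and assigned to another gene, there were 12 gained and 2 lost peaks. Of the 41 gained peaks, 25 met both criteria, 12 only that of the nearest TSS and 4 only that of the gene body. The 4 were the peaks shared with Tnnt1, Opn4, Speg and Trpm4.

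The motif content of the 41 gained peaks was set beside that of all gained peaks of the same length. GATA strings were found in 8 of 41, 19.5% (10.2 to 34.0), beside 11.1% of all gained peaks. NFY strings were found in 17, 41.5% (27.8 to 56.6), beside 29.3%, and TBX5 strings in 6, 14.6% (6.88 to 28.4), beside 9.90%. NKX2-5 strings were in 12 (29.3%, beside 28.9%), KLF strings in 12 (29.3%, beside 27.5%) and TEAD strings in 4 (9.76%, beside 11.4%). The E-box string was in 1 of 41, 2.44% (0.432 to 12.6), beside 13.2%. MEF2 and CArG consensus strings were in 1 peak each, beside 3.26% and 2.46%, and CTCF in none (upper limit 8.57%), beside 0.285%. Of the 6 lost peaks, 2 held the TEAD string and 1 each the NKX2-5, KLF and E-box strings, beside 18.2%, 31.9%, 10.2% and 15.4% of all lost peaks. The shares rest on 41 gained and 6 lost peaks. The mean GC content of the 41 was 55.5% (SD 7.50 over peaks), and that of all gained peaks 56.7% (SD 8.55). Repeats covered more than 50% of the peak in 6 of the 41, or 14.6%, beside 10.2% of all gained peaks.

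The promoters of these genes were searched for the same strings, in windows longer than the peaks, so that the shares of the windows and of the peaks are not compared with each other. RefSeq promoter windows (GRCm38, 250 bp before to 50 bp after the start) were matched by symbol for 37 of the 45 genes. MEF2 strings were in the windows of 6 of 37 genes, 16.2%, beside 3.70% of all 27025 genes with a window. The latter outnumber the 21938 protein-coding genes of GENCODE M21, and no interval was computed for these shares. CArG boxes were also in 6, beside 1.81%. The MEF2 genes were Mybpc3, Ttn, Casq2, Myoz2, Xirp2 and Fhl2. The CArG genes were Actc1, Myl3, Myl7, Ldb3, Myom1 and Fhl2. Gained peaks overlapped 4 of the matched genes' windows, those of Nppa, Tnni3, Hrc and Myl3, and of these 4 peaks only that of Myl3 held a CArG box. GATA and TEAD strings were each in the windows of 11 genes, 29.7%, beside 12.7% and 16.6%. E-box strings were in 32.4% of the windows, beside 18.3%, KLF in 40.5%, beside 34.0%, NFY in 45.9%, beside 41.1%, and CTCF in 2.70%, beside 0.503%. NKX2-5 strings were in 48.6%, beside 49.99%, and TBX5 strings in 10.8%, beside 15.7%. A match describes the letters in a window and not the binding of a factor.

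**Figure D4:**
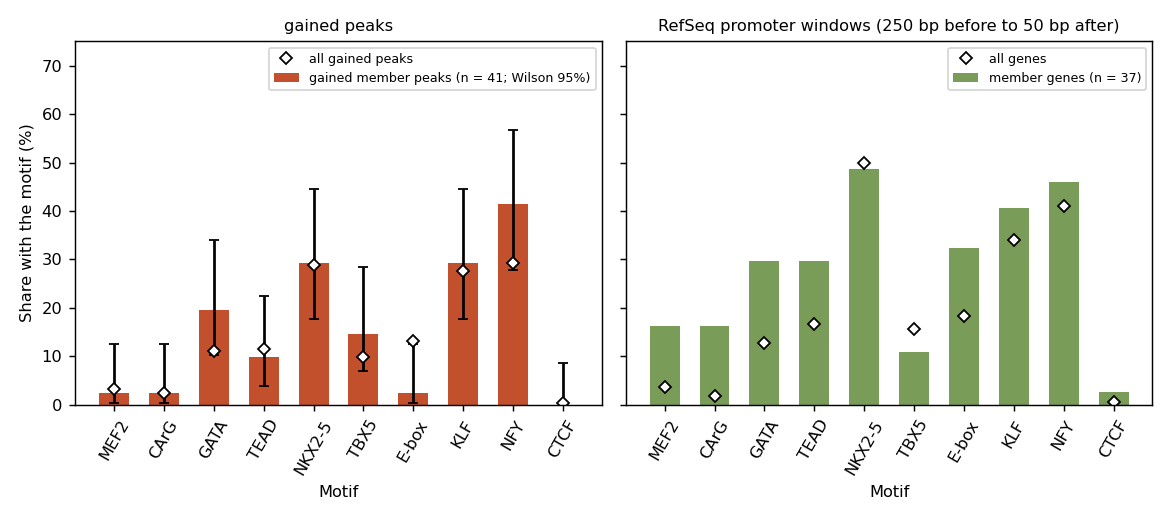
Share (%) of the 41 gained member peaks with each of 10 motif strings (left, Wilson 95% intervals) and of the 37 member genes with the string in a RefSeq promoter window (right), with all gained peaks or all genes with a window as diamonds. In promoters the MEF2 and CArG bars (16.2% each) stand above their diamonds, and in gained peaks (2.44% each) the diamonds lie within the intervals. Windows are longer than peaks, so bars of the left and right panels are not to be set against each other.

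Related genes outside the set were taken from lists compiled with earlier results known. Of 22 skeletal muscle paralogues, 15 had a gained peak (34 peaks, median score 102.5) and 0 had a lost peak. Ryr1, the skeletal ryanodine receptor, had 9 gained peaks with scores up to 324.0, and Acta1, skeletal actin, had 2, up to 225.0. The troponin genes Tnnc2 (178.0), Tnnt1 (up to 215.5, in a peak nearest to the start of Ppp1r12c) and Tnnt3 (101.0) also had gained peaks. Tnni2, the skeletal troponin I gene of the list, Myh1, Myh2, Myh4, Myh8, Mybpc1 and Myoz3 had none. Within 3 kb of a start, 13 of the 22 paralogues had a gained peak, beside 12.4% of all protein-coding genes, and 1 of these, Tnnt1, counts through the peak it shares with Tnni3. Of 25 other sarcomere and Z-disc genes, 19 had a gained peak and 4 (Neb, Pdlim3, Pdlim5 and Fhl1) a lost one. Of 14 other excitation-contraction genes, 11 had a gained peak and 4 a lost one. Cacna1c, the pore of the L-type calcium channel, with a gene body of 609 kb, had 12 gained and 2 lost peaks, while Cacnb2, its beta subunit, had 1 gained and 3 lost. Of 11 intercalated disc genes, 8 had a gained peak and 5 (Cdh2, Jup, Ctnna1, Vcl and Tjp1) a lost one, each of these 5 also with a gained peak. The gained shares of these lists were, in the order given, 68.2%, 76.0%, 78.6% and 72.7%. Each was above the 53.3% of the set, so a share above that of all genes was not particular to the set. The median stretch assigned per gene was 37.6 kb for the skeletal paralogues, 67.9 kb for the other sarcomere and Z-disc genes, 243 kb for the other excitation-contraction genes and 104 kb for the intercalated disc genes. They fall, in this order, in the terciles where 23.2%, 33.9%, 55.2% and 55.2% of all genes had a gained peak and 2.01%, 5.83%, 24.5% and 24.5% a lost peak. Single genes of a list also lie in other terciles, as does Ryr1 with a gene body of 121.8 kb. These tercile shares are thus not matched gene by gene.

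Markers of other cell types were in both lists. Of 10 erythroid markers, 6 had a lost peak (10 peaks with scores from 21.8 to 64.6), among them the embryonic globin genes Hbb-y, Hbb-bh1 and Hba-x, and 1, Gata1, a gained peak. Neighboring globin genes shared 4 of these 10 peaks, so the 6 genes are not separate counts. Gained peaks were assigned to 8 of 10 endothelial, 5 of 9 epicardial, 5 of 7 smooth muscle and 5 of 7 neuronal markers. Lost peaks were assigned to 3, 4, 1 and 2 of them, respectively. Tpm2 is in both the smooth muscle and the skeletal paralogue list and counts in each through the same gained peak (247.5). The median stretch assigned per gene was 25.3 kb for the erythroid, 182 kb for the endothelial, 51.3 kb for the epicardial, 42.0 kb for the smooth muscle and 402 kb for the neuronal markers. In the terciles of these medians, a gained peak was assigned to 23.2% (erythroid), 33.9% (epicardial and smooth muscle) and 55.2% (endothelial and neuronal) of all genes, and a lost peak to 2.01%, 5.83% and 24.5%. Here too, single genes of a list can lie in other terciles than its median. These hearts are mixtures of cells, and in them a change in the share of cardiomyocytes cannot be told apart from a change in accessibility within cardiomyocytes. The part of cell composition in the peaks of the sarcomere genes was not tested.

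**Figure D5:**
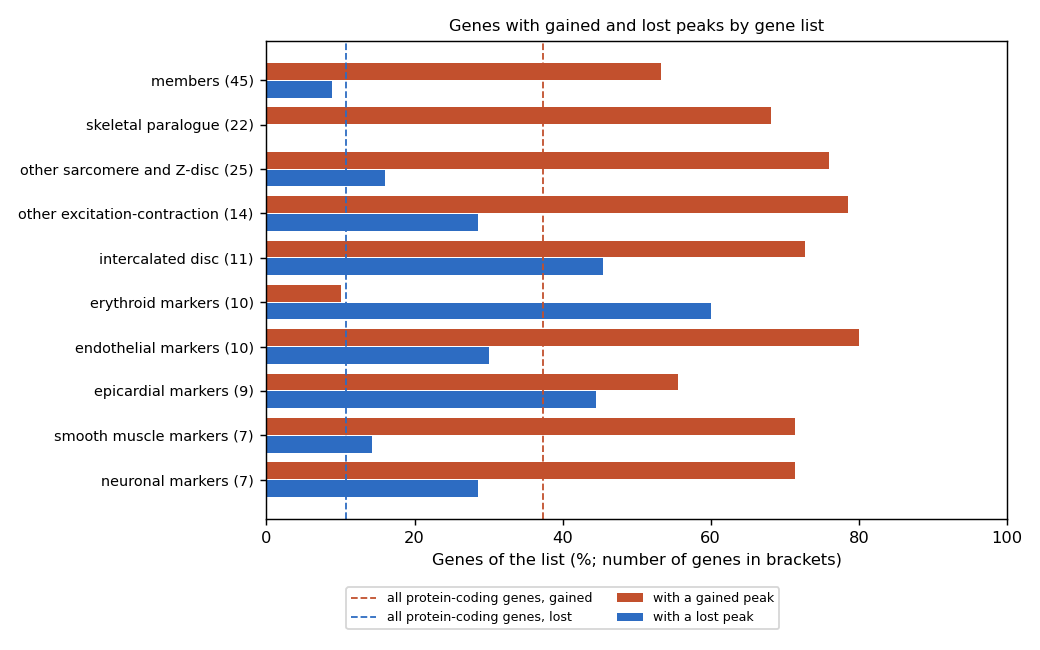
Share of genes (%) with a gained and with a lost peak in the 45 member genes, in 4 lists of related genes and in 5 lists of markers of other cells, with the number of genes in brackets and dashed lines at the shares of all protein-coding genes of any length (37.4% gained and 10.8% lost). Erythroid markers are the list with the lowest gained share (1 of 10) and the highest lost share (6 of 10), and skeletal paralogues have no lost peak. All lists except the erythroid one have a higher gained share than the set.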

How the data were processed

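ATAC-seq was performed by the authors on pooled E10.5 hearts, 4 samples of WT and 4 of Chd4-CMko. Tn5 was applied to the nuclei of 40000 cells per sample, and BWA-MEM placed the reads on mm10. Per the labels, HOMER (4.10.3) called the peaks and ChIPseeker (1.20.0) annotated them. The study's methods set a fold limit for differential peaks. Filters on reads, duplicates, any Tn5 offset shift, and how samples were merged into 1 list are not given in the sources used here, and each could change which peaks were listed. The methods state a sequencing depth, but the files hold no read total per sample to check it. The deposited value per peak is a score of the authors' caller, whose scale is not stated and whose steps differed between the lists (100% of gained and 20.1% of lost scores were multiples of 0.5), so scores were ranked only within a list.

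Peaks were 151 bp wide, except for 1 lost peak of 131 bp outside the set. Coordinates were read 1-based and joined with GENCODE M21 and the GRCm38 sequence (the build of mm10) with Python 3.11.15, pandas 2.3.3, numpy 2.4.6 and pysam 0.24.0. Distances run from the edge of a peak to the nearest TSS of any transcript of the gene, and are 0 where the peak covers it. Distances to the RefSeq start, where matched, are given beside them for some of the peaks at which the sources disagree. Elsewhere they are left out, as for the Ttn peak (9659 bp by GENCODE, 12024 by RefSeq) and the highest scoring lost Ryr2 peak (130365 and 146776 bp). Repeats are the soft-masked bases of the reference. Wilson 95% intervals are given for the main shares of members and of their peaks, and none were computed for the promoter windows. The members, the lists and the tests were chosen with earlier results of these data known. Peaks were given one by one for members with at least 3 peaks, a peak within 1 kb of a start, a lost peak or a peak in the top 10% by score (17 members). Values of the other 8 members with peaks were added after they were seen. Assignment and motif search were checked on simulated data. Alternatives covered the assignment rule, score limits, promoter windows and motif mismatches.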

Additional observations from a re-analysis of the deposited data

How the results depend on the processing

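The number of member genes with a gained peak (24) lay between 18 and 23 under 7 of the 8 alternatives and was 10 within 3 kb of a TSS of the gene. The number with a lost peak (4) was 3 or 4 under these 7 and 1 within 3 kb. Gained peaks of the members (41) were 12 within 3 kb and 27 among peaks at or above the median score of their list, and lost peaks (6) were 1 within 3 kb. The promoter share of gained member peaks (39.0%) was 73.2% with a window of 10 kb and 29.3% with RefSeq start sites, the latter within the interval. The MEF2 share (2.44%) was 0% with the nearest protein-coding TSS only, 0% within 3 kb, 0% for peaks whose nearest TSS is that of the member only, and 17.1% with 1 mismatch, beside 10.7% of all gained peaks with 1 mismatch. The zero values follow from leaving out the 1 peak near Speg that holds the consensus. Beside the members, the share of all protein-coding genes with a gained peak also fell, to 30.3% within 10 kb of the gene body only, where 18 of 45 members (40.0%, interval 27.0 to 54.5) had one. This interval includes the share of all genes, as does that without peaks over 50% repeat (46.7%, 32.9 to 60.9, beside 34.9%), while the main interval (39.1 to 67.1) lies above 37.4%. The members were chosen with earlier results known, and neighbors such as Nppa and Nppb are not independent. The intervals are therefore no test between members and all genes. Tpm1, Nppb, Myom2, Bves and Mb had 0 peaks when only the body was used, and Ldb3 had 0 when only the nearest TSS was used. The limit of 100 kb on the nearest TSS, the removal of peaks over 50% repeat and the RefSeq starts were chosen after seeing the data. The common score limit for both lists assumes that they share a scale, which is not stated.

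No paired analysis was possible because the files hold 1 list per genotype and no value per sample, so leaving out a replicate could not be done either. Depth per sample was not used here, and a peak that was not listed cannot be read as unchanged.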
